A study of Mus musculus with 15 samples.

Results

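The stearoyl-CoA desaturase family of the mouse has 4 genes, Scd1, Scd2, Scd3 and Scd4. The enzymes put a cis double bond into saturated acyl-CoA, making palmitoleate and oleate from palmitoyl-CoA and stearoyl-CoA, with electrons from NADH passed through cytochrome b5 reductase and cytochrome b5. Scd1 is known as the main desaturase of liver and fat and as a target of SREBP-1c and LXR, Scd2 as the main form of the brain, and Scd3 as a form of skin and the Harderian gland. Scd4 is known as a form of the heart.

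The members are the rows of the deposited expression table whose gene name holds 1 of the 4 symbols. They are 5 of 23589 named loci and of 33603 loci in all, since Scd3 has a row on each strand of 1 interval. The family was chosen by the counts of Scd1, which are 0 in every library of restricted mice. Family values set against those libraries are therefore given as a description, with no test within a tissue. A model over all tissues includes the family, but its call of Scd1 in restricted mice was fixed by that choice. Scd2 shares its row with the microRNA gene Mir5114, which lies inside it.

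The 15 libraries cover 5 tissues of male C57BL/6 mice, namely liver, epididymal fat, colon (mucosa), hypothalamus and hippocampus, under 3 diets. AL mice ate ad libitum, DR mice were given 60% of the AL intake (dietary restriction) for 1 month, and DR-AL mice returned to ad libitum food for 2 months after such a month. RNA from 5 mice was pooled into 1 library for each tissue under each diet, so no value has a replicate. The DR-AL mice were killed at 7 months of age and the others at 5 months, so that diet and age cannot be told apart in DR-AL. Libraries held 21767088 to 40500130 counts on named loci (median 26554699), and unnamed loci held 0.258% to 1.39% of all counts. Levels in CPM are counts scaled to the usual common total of counts on named loci per library. Intervals are exact 95% intervals that cover counting error only, and in pooled tissue fewer cells of a type and less RNA per cell cannot be told apart.

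The 4 genes lie in a row on chromosome 19. In the GENCODE M21 annotation of GRCm38, Scd3 is at chr19:44203269-44244016, Scd2 at chr19:44293674-44306864 and Scd4 at chr19:44333092-44346743, all on the plus strand. Scd1 is at chr19:44394455-44407879 on the minus strand. Each has a longest coding transcript of 6 exons, and the coding sequences are 1065 bases for Scd1, 1074 for Scd2, 1077 for Scd3 and 1059 for Scd4. Coding identity to Scd1 was 90.3% for Scd2, 91.5% for Scd3 and 85.1% for Scd4.

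Such likeness bears on whether a read can be assigned to 1 member, since the reads were 75 bases long. The stretch of that length with the fewest differences from Scd1, bases 442 to 516 of the Scd1 coding sequence, is the same in Scd2 and Scd4 and differs at 1 base in Scd3. Capitals mark bases that differ from Scd1.
Scd1: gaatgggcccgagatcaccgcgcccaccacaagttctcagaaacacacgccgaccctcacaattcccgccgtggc
Scd2: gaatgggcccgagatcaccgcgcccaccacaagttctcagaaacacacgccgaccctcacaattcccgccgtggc
Scd3: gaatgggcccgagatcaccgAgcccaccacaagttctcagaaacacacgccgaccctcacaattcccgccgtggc
Scd4: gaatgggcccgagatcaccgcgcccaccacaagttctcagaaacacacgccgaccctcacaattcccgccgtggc

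The stretch with the most differences, bases 791 to 865 of the Scd1 coding sequence, tells all 4 members apart. Scd2 differs from Scd1 there at 12 bases, Scd3 at 18 and Scd4 at 24.
Scd1: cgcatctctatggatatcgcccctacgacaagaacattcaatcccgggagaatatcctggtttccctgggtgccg
Scd2: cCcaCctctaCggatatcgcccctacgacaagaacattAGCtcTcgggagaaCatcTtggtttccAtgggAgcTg
Scd3: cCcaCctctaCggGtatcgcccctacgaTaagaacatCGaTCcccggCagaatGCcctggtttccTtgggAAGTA
Scd4: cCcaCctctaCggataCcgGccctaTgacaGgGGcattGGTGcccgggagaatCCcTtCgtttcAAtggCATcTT

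Of the 991 windows of 75 bases in the Scd1 coding sequence, 154 (15.5%) occur unchanged in another member. Over the whole Scd1 transcript, which adds no such window, the share was 3.24%. It was 1.80% for Scd2, 3.25% for Scd3 and 1.86% for Scd4. Most 75-base windows of each transcript thus have no exact match in another member. The reads were sequenced in pairs, and pairs, inexact matches and the rest of the genome were not examined.

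Scd1 had the highest level of the family in fat and liver, and its count was 0 in all 5 DR libraries. In epididymal fat Scd1 had 756056 counts under AL, 0 under DR and 392180 under DR-AL. It was the most abundant named locus of AL and DR-AL fat, with 2.88% and 1.43% of the counts on named loci. In liver the counts were 106055, 0 and 81564. In the hypothalamus they were 12276, 0 and 12053, and in the hippocampus 8533, 0 and 5683. The colon had the lowest counts, 1252, 0 and 1255 in the same order. The deposited FPKM of Scd1 (fragments per length and library size) was also 0 in each DR library.

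In the order of its AL and DR-AL levels, Scd1 stood highest in fat (28838 and 14335 CPM). Liver followed (4288 and 3330 CPM), then hypothalamus (414 and 386 CPM), hippocampus (211 and 226 CPM) and colon (47.1 and 50.1 CPM). The ranges of neighbouring tissues did not overlap. A count of 0 allows up to 3 counts, which is 0.0898 to 0.138 CPM in the DR libraries. Had Scd1 kept its AL share of counts, the DR libraries would hold 658353 counts in fat and 93331 in liver, and 13547, 6579 and 1576 in hypothalamus, hippocampus and colon.

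**Figure D1:**
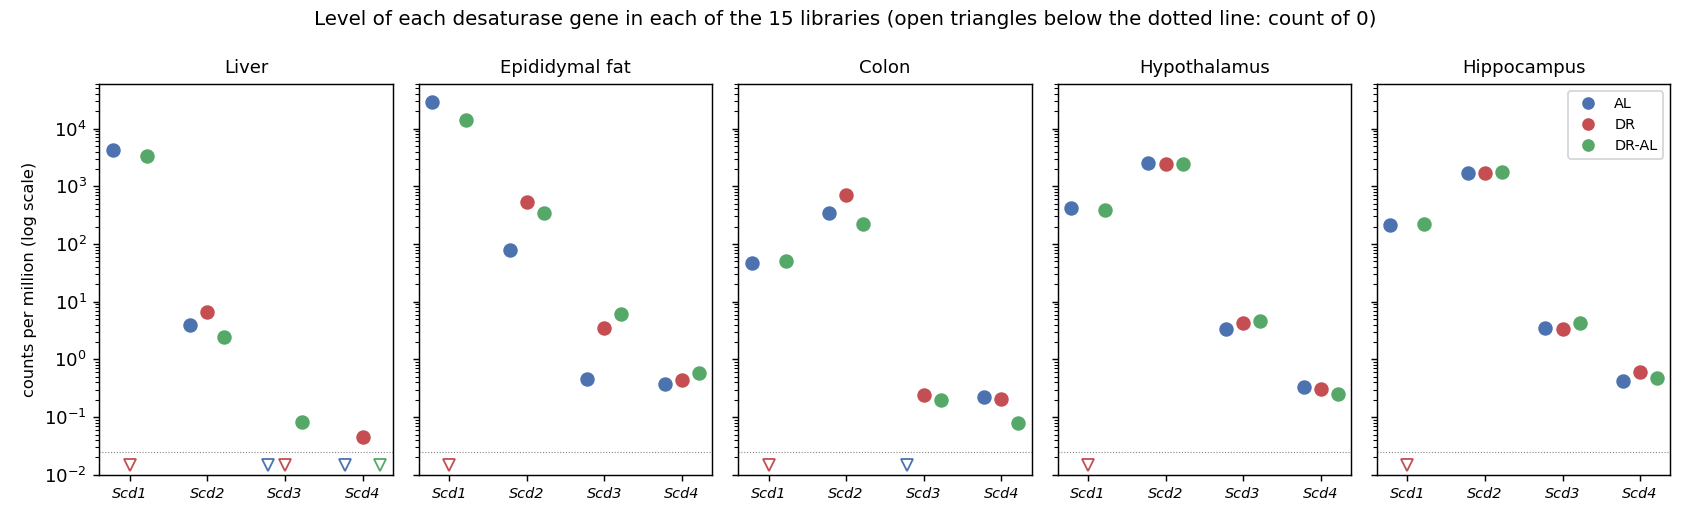
Level of each desaturase gene in CPM (log axis), 1 panel per tissue and 1 point per library (Scd3 on its annotated strand), AL in blue, DR in red and DR-AL in green, with counts of 0 drawn as open triangles. Scd1 lies between 47.1 and 28838 CPM in AL and DR-AL libraries and has an open triangle in each DR library, while Scd2 lies between 1670 and 2484 CPM in both brain regions under every diet.

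Among all 33603 loci, Scd1 was the only one with 0 counts in all 5 DR libraries and on average 100 counts or more in the 10 others. Its mean there was 137691 counts and its lowest count 1252. The next 3 loci at 0 in all DR libraries were unnamed and had means of 14.0, 12.2 and 12.1 counts. Within each of the 5 tissues, too, Scd1 was the only locus at 0 in DR with at least 100 counts in both the AL and the DR-AL library. For AL libraries 38 loci met the same rule and for DR-AL libraries 2, and none of these had counts in all 10 other libraries. No locus had counts in all 5 DR libraries and 0 in the other 10.

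**Figure D2:**
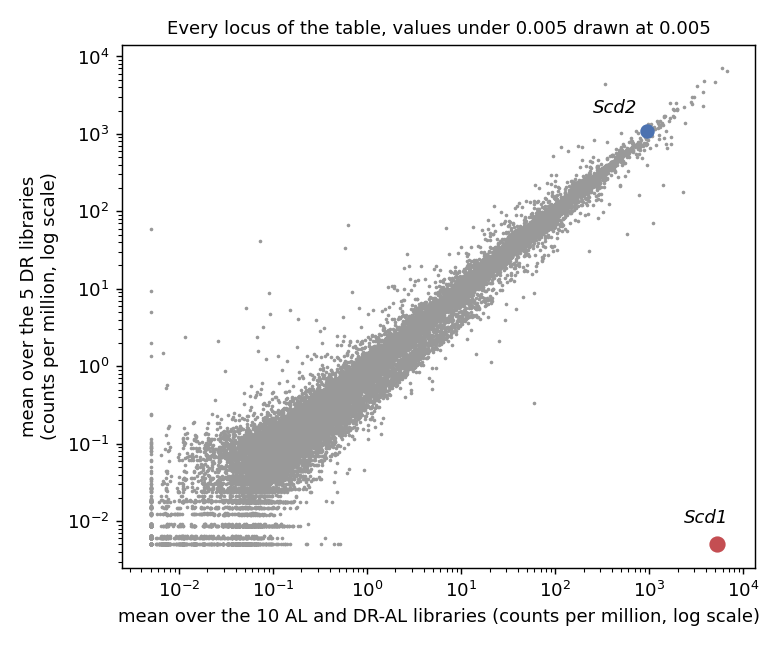
Each point is 1 locus, with its mean over the 10 AL and DR-AL libraries (horizontal, CPM, log axis) against its mean over the 5 DR libraries (vertical, CPM, log axis). Scd1 (red) sits alone at the lower right, its 0 in DR drawn at the floor of the axis, while Scd2 (blue) lies within the band of the other loci.

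The zeros are listed values, and whether reads of Scd1 were absent or not counted in the DR libraries was not tested. Alb, the albumin gene and the defining transcript of hepatocytes, is listed at 0 in all 15 libraries, the 3 livers included. The other hepatocyte genes were abundant there, Apoa1 with 249830, 276757 and 402179 counts in AL, DR and DR-AL liver. Alb was singled out after its values were seen, and it is 1 of 2393 named loci at 0 in every library. Alb is at 0 under every diet, whereas Scd1 is at 0 under DR only. The largest count of the whole table was that of Scd1 in AL fat, and the largest in DR fat was 491666, on Car3, also singled out after the fact. Scd1 was also at 0 in DR colon, hippocampus and hypothalamus, where its AL share would give 1576, 6579 and 13547 counts. Since absence of reads was not tested, no fold change is given for Scd1 in DR.

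The loci around Scd1 were examined for counts of a like size in the DR libraries. Within 200000 bases of a desaturase locus the table has 17 further loci, 10 named and 7 unnamed. The unnamed loci held 337 counts over the 15 libraries, 83, 126 and 128 of them under AL, DR and DR-AL. Their highest count in a library was 72, in DR fat, at a locus 6995 bases upstream of Scd1 on the opposite strand that had 9 counts in AL fat and 28 in DR-AL fat. In DR liver these 7 loci had 0 counts in all, and in the DR hippocampus 0. No unnamed locus near the family held counts of the size that Scd1 had under AL. All unnamed loci of the table together held 63643 counts in DR liver and 63992 in AL liver, and 152983 in DR fat and 172910 in AL fat. In liver and fat these DR sums are below the counts Scd1 would have at its AL share. In the other 3 DR libraries they are above them, with 399210 counts on unnamed loci in colon (277031 in AL), 236939 in hypothalamus (220780 in AL) and 149961 in hippocampus (205071 in AL). The AL sums there are above them too, and the libraries differ in depth. As a share of all counts, unnamed loci held 1.03% in AL and 1.18% in DR colon. The shares were 0.739% and 0.718% in hypothalamus, 0.504% and 0.478% in hippocampus, 0.258% and 0.292% in liver, and 0.655% and 0.666% in fat.

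None of the 10 named neighbours was at 0 in all DR libraries. Ndufb8, a subunit of respiratory complex I, had 3554 counts in DR liver and 3255 in AL liver, a ratio of 1.24 (1.18 to 1.30). Erlin1, which codes for an endoplasmic reticulum membrane protein, had a ratio of 1.17 (1.06 to 1.29) in liver and 1.09 (0.998 to 1.19) in fat. Chuk, an IkappaB kinase gene, had ratios of 0.822 (0.778 to 0.868) and 0.794 (0.738 to 0.853). Among pairs that averaged 100 counts or more, the lowest ratio was that of Cyp2c44, a liver cytochrome P450, in fat, with 1386, 34 and 21 counts (AL, DR and DR-AL). The highest was 2.08 (1.72 to 2.51) for Sec31b in liver.

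**Figure D3:**
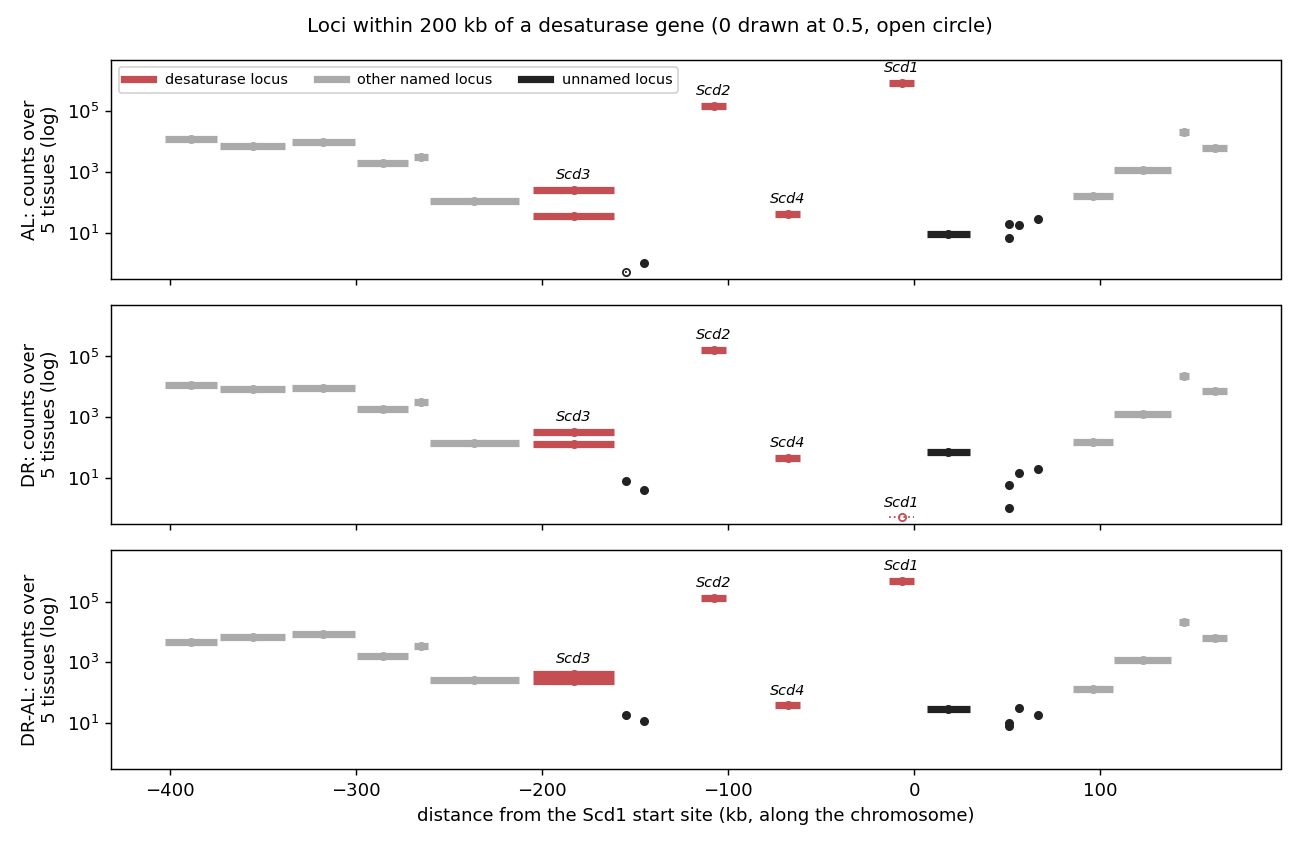
Counts summed over the 5 tissues (log axis) for each locus within 200 kb of a desaturase gene, by distance from the Scd1 start site in kb, in AL, DR and DR-AL panels. Scd1 has 884172 counts in the AL panel, 0 in the DR panel (open circle) and 492735 in the DR-AL panel, while no unnamed locus exceeds 73 counts in any panel.

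Scd2 had another order over tissues than Scd1. It was highest in the hypothalamus, with 73724, 80405 and 76171 counts in AL, DR and DR-AL, and followed in the hippocampus with 68165, 52133 and 44105. Per library size these were 2441 to 2484 CPM and 1670 to 1753 CPM. The colon had 9184, 23320 and 5639 counts, fat 2060, 12410 and 9390, and liver 99, 142 and 60. Colon and fat levels overlapped, at 225 to 698 CPM and 78.6 to 544 CPM, and all other neighbours in this order were apart.

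On the per-length FPKM scale, Scd1 exceeded Scd2 in AL liver (1958 against 2.11) and AL fat (4586 against 13.03). Scd2 exceeded Scd1 6.24-fold in the AL hypothalamus, 8.41-fold in the AL hippocampus and 7.73-fold in the AL colon. In DR-AL libraries Scd2 was above Scd1 6.62-fold, 7.94-fold and 4.85-fold in the same 3 tissues. In DR fat Scd2 stood at 57.3 FPKM, and in DR liver at 2.93 FPKM, where no other member exceeded 1 FPKM.

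As a description, the level of Scd2 in DR was above that in AL in fat, colon and liver and close to it in the brain. The ratio of CPM was 6.92 (6.60 to 7.25) in fat, 2.02 (1.97 to 2.07) in colon and 1.63 (1.252 to 2.13) in liver. It was 0.988 (0.978 to 0.998) in the hypothalamus and 0.992 (0.981 to 1.00) in the hippocampus. Beside the counts that Scd1 would hold at its AL share, Scd2 had 12410 against 658353 in DR fat and 142 against 93331 in DR liver. In DR colon it had 23320 against 1576, and in DR hypothalamus and hippocampus 80405 against 13547 and 52133 against 6579. These are whole Scd2 counts and not a gain over AL. The AL libraries already held 9184 Scd2 counts in colon, 73724 in hypothalamus and 68165 in hippocampus, with 2060 in fat and 99 in liver. Whether any of the Scd2 counts came from Scd1 reads was not tested. After return to AL, Scd2 stood below the DR library in fat (ratio 0.631, 0.615 to 0.649), colon (0.323, 0.313 to 0.332) and liver (0.375, 0.273 to 0.511).

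Setting DR-AL against AL does not use the DR libraries, and here the pairwise Z test of the study's methods was applied to all named loci. Called means an adjusted p (Benjamini-Hochberg) below 0.05 together with a change of at least 25% of the lower value, and the call compares 2 libraries, not the diets. In liver, where 30.9% of 17408 loci were called (15% higher, 15.8% lower), Scd1 (ratio 0.777, 0.770 to 0.784) and Scd2 (0.612, 0.436 to 0.852) were lower. In fat, where 57.9% of 20382 loci were called (46% higher, 11.9% lower), Scd1 was lower (0.497, 0.495 to 0.499) and Scd2 higher (4.37, 4.16 to 4.58). In the colon, where 14.3% of loci were called (5.83% higher, 8.5% lower), Scd2 was lower (0.651, 0.630 to 0.673) and Scd1 was not called (1.06, 0.982 to 1.15).

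Neither gene was called in the brain. In the hypothalamus, where 15.1% of loci were called (6.06% higher, 9.02% lower), the ratio was 0.934 (0.910 to 0.958) for Scd1 and 0.983 (0.973 to 0.993) for Scd2. In the hippocampus, where 6.15% were called (3.99% higher, 2.16% lower), it was 1.07 (1.04 to 1.11) and 1.04 (1.03 to 1.05). An edgeR exact test assumed a coefficient of variation of 0.1 between libraries. It called 43.7% of all loci in DR-AL fat, 10.6% in DR-AL liver and 1.86% in DR-AL colon. By that test the fat calls of Scd1 and Scd2 held, as did those of both rows of Scd3. The liver calls of Scd1 and Scd2 and the colon calls of Scd2 and Scd3 were lost (adjusted p = 0.30, 0.14, 0.11 and 0.64).

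**Figure D4:**
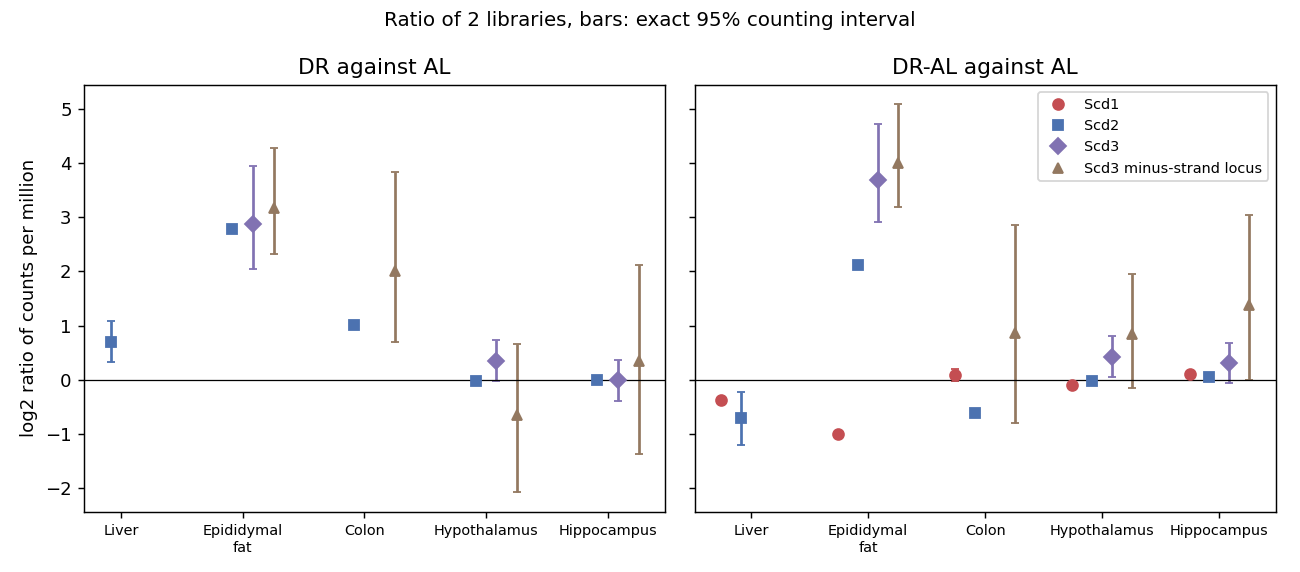
Log2 ratio of CPM for DR against AL (left) and DR-AL against AL (right) by tissue, with bars for the exact 95% counting interval and no point where a library has 0 counts. In fat Scd2 lies at 2.79 and 2.13 and Scd1 at -1.01 in DR-AL, while the brain points of both genes lie close to 0.

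Scd3 and Scd4 were near the lower limit of the measurement. Scd3 on its annotated strand had 101, 142 and 143 counts in the hypothalamus and 140, 107 and 108 in the hippocampus (AL, DR and DR-AL). In fat it had 12, 80 and 168 counts, in colon 0, 8 and 5, and in liver 0, 0 and 2. In fat its DR ratio was 7.66 (4.15 to 15.4), and against AL the DR-AL library was called higher, with a ratio of 13.4 (7.48 to 26.5). Scd3 was also called higher in DR-AL colon, on 5 counts against 0, at least 1.77-fold against 3 counts. In both brain regions Scd3 was not called, at 1.35 (1.04 to 1.75) and 1.24 (0.957 to 1.61).

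The minus-strand row of the Scd3 interval had 11, 90 and 191 counts in fat, so that it was as high as the annotated strand there. In the hypothalamus it had 13, 9 and 25 counts against 101 to 143 on the annotated strand. Its DR-AL fat library was called higher than AL, with a ratio of 16.6 (9.09 to 33.9). It had 5, 27 and 9 counts in colon, 7, 7 and 12 in the hippocampus and 0 in all livers. The libraries were made and aligned with strand, so the rows are separate counts. Scd4 had at most 19 counts in a library and at most 0.157 FPKM. Its counts were 10, 10 and 16 in fat and 17, 19 and 12 in the hippocampus, and it was called in no tissue in DR-AL against AL.

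Markers of other cells also differed between the fat libraries, in patterns that were not alike. Summed over 7 testis germ cell genes, the fat libraries held 4.77, 583 and 2818 CPM under AL, DR and DR-AL, with all 7 above 0 in each. Over 7 epididymis genes they held 908, 3311 and 5314 CPM, and none was at 0. Crisp1 carried most of that sum, with 22172, 63971 and 125400 counts, and Adam7 and Spint4 were also highest in DR-AL. The other 4 were highest in DR, such as Lcn8 with 2, 1003 and 5 counts and Rnase10 with 7, 603 and 24. Over 4 smooth muscle genes the sums were 995, 3027 and 949 CPM, and over 3 macrophage genes 97.4, 136 and 124 CPM. The 6 sebaceous gland genes summed to 19.6, 32.9 and 59.1 CPM. Soat1 and Elovl3, which are also in the pathway list, moved apart, with 310, 618 and 1468 counts and 119, 40 and 6. Without Soat1 the other 5 genes summed to 7.82, 5.83 and 5.45 CPM, a fall that Elovl3 carried. Of the rest, Far2 had 62, 61 and 90 counts, Awat2 18, 12 and 36 and Mc5r 6, 20 and 17, with Awat1 at 0 in each. The 8 adipocyte genes summed to 43372, 34882 and 30400 CPM. The part of these cells in the fat values of Scd2 and Scd3 was not tested.

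Hepatocyte genes stood out in AL fat. The 7 hepatocyte markers with counts in AL liver stood at a median 12.1% of their level in AL liver (range 7.98% to 55.2%). In DR fat that median was 0.114% and in DR-AL fat 0.0170%, with Cyp2e1 highest in each, and Alb was at 0. Scd1 itself was at 673% of its AL liver level in AL fat and 334% in DR-AL fat, beyond the range of those markers. In the brain, Scd2 kept its level while the 8 oligodendrocyte markers summed to 3909, 4335 and 5859 CPM in the hypothalamus (AL, DR, DR-AL), and to 5965, 4892 and 5368 CPM in the hippocampus. Neuronal markers there summed to 3039 to 3768 and 5874 to 6501 CPM, and astrocyte markers to 2241 to 2359 and 1962 to 2192 CPM. In the colon, Scd2 stood at 346, 698 and 225 CPM. The 4 smooth muscle genes there had the same order, at 35.7, 52.5 and 17.6 CPM in sum, with 331, 689 and 136 counts for Acta2 and 290, 531 and 162 for Myh11. The 7 epithelial genes summed to 14912, 14607 and 14622 CPM, but their members moved apart, with 163572, 140459 and 88532 counts for Car1 and 95143, 142449 and 140976 for Muc2. The part of these cells in the brain and colon values was not tested.

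The genes around the desaturase step were described with a list of 43 genes of fatty acid synthesis, elongation, other desaturases, electron donors, esterification and regulators. In DR liver 22 of the 43 were called higher and 8 lower than in AL, where 28% of all loci were called (18% higher, 9.92% lower), and their median log2 ratio was 0.38 against 0.10 over all loci tested. In DR fat 27 were higher and 6 lower, where 45.6% of all loci were called (35.2% higher, 10.4% lower), with a median of 0.48 against 0.23. The 9 genes of substrate supply and fatty acid synthesis were all called higher in DR fat and 8 of 9 in DR liver. The genes of this set act in or around the making of the saturated substrate of the desaturase. Scd1 was listed at 0 in the same libraries, and whether its reads were absent there was not tested.

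Fasn, the fatty acid synthase, had 31981, 473270 and 9187 counts in fat (AL, DR and DR-AL). In liver it had 1954, 12278 and 794. The DR ratios were 16.99 (16.8 to 17.2) and 7.14 (6.81 to 7.49). Elovl6, the elongase that makes stearoyl-CoA from palmitoyl-CoA, had 746, 14737 and 797 counts in fat and 1293, 2404 and 1071 in liver, DR ratios of 22.7 (21.1 to 24.5) and 2.11 (1.97 to 2.26). Acly, the ATP citrate lyase, was 18.2-fold higher (17.6 to 18.8) in DR fat and 2.58-fold (2.44 to 2.73) in DR liver.

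Acss2 and Slc25a1, which supply acetyl units, were 7.88-fold and 3.59-fold higher in DR fat. Acaca, the acetyl-CoA carboxylase, was 7.02-fold higher and Me1, the malic enzyme that gives NADPH, 7.03-fold. In DR liver Acss2 was 3.99-fold higher, Acaca 2.50-fold and Slc25a1 1.69-fold, while Me1 was not called (1.24, 1.19 to 1.29). Thrsp, a lipogenic protein induced by thyroid hormone and carbohydrate, had 1268, 10350 and 280 counts in liver. Its partner Mid1ip1 was 5.45-fold higher in DR liver and 2.81-fold in DR fat.

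Srebf1, which codes for the transcription factor SREBP-1, had 1553, 5659 and 454 counts in liver and 5873, 16788 and 5050 in fat, DR ratios of 4.14 (3.91 to 4.38) and 3.28 (3.19 to 3.38). Insig1, which retains the SREBP complex in the endoplasmic reticulum, was 2.67-fold and 2.98-fold higher in DR liver and fat. Its relative Insig2 was lower in both, at 0.416 (0.393 to 0.441) and 0.688 (0.645 to 0.734). Ppara, the fatty acid receptor of oxidation, was lower in DR liver (0.662, 0.639 to 0.685), fat (0.246, 0.223 to 0.271) and colon (0.536, 0.495 to 0.5801). Elovl3, an elongase, was lower in DR liver, with 3284, 393 and 3773 counts across the diets, and Elovl5 was lower there too (0.789, 0.766 to 0.813).

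Of the other desaturases, Fads1 was higher in DR liver (1.64, 1.59 to 1.68), fat (1.51, 1.46 to 1.57) and colon (1.49, 1.20 to 1.86). Fads2 was higher in DR colon (1.38, 1.33 to 1.43) and not called in DR liver (0.823, 0.803 to 0.844) or fat (1.248, 1.20 to 1.30). Of the electron donors, the reductase gene Cyb5r3 was higher in DR liver (1.47, 1.43 to 1.51) and fat (1.36, 1.32 to 1.41). Cyb5a, the cytochrome b5 gene, listed in the table under an older name, was called in neither, at 1.18 (1.16 to 1.20) and 0.900 (0.880 to 0.921).

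Of the esterification genes, Lpin1, a phosphatidate phosphatase, was 3.54-fold higher in DR liver and Agpat2, an acyltransferase, 3.65-fold higher in DR fat. Pnpla3, a lipid droplet protein, was 1.55-fold higher in DR fat and in DR-AL fat stood at 0.115 (0.108 to 0.122) of AL. Soat1, a sterol acyltransferase, was 2.29-fold higher in DR fat.

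In DR-AL the direction in liver and fat was mostly lower. In liver 7 of the 43 genes were called higher and 16 lower, beside 15% and 15.8% of all loci, with a median log2 ratio of -0.24 against 0.00 over all loci. In fat 9 were higher and 22 lower, beside 46% and 11.9% of all loci, with a median of -0.33 against 0.39. Fasn stood at 0.410 (0.377 to 0.446) of AL in liver and 0.275 (0.269 to 0.282) in fat, and Thrsp at 0.223 (0.195 to 0.254) and 0.274 (0.265 to 0.283). Srebf1 was lower in DR-AL liver (0.295, 0.265 to 0.328) and not called in fat (0.824, 0.793 to 0.856). Higher in DR-AL liver were Elovl5 (2.93, 2.86 to 2.99), Insig2 (3.41, 3.30 to 3.53) and the leptin receptor gene Lepr (6.35, 5.47 to 7.39). Of the 9 genes of substrate supply and fatty acid synthesis, 6 were called lower and 2 higher in DR-AL fat. The 2 higher ones were Mid1ip1 (4.38, 4.08 to 4.71) and Acly (1.38, 1.32 to 1.44).

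Outside liver and fat fewer of the genes were called. In the colon 5 were higher and 11 lower in DR, where 19.7% of all loci were called (9.04% higher, 10.6% lower), and 2 higher and 8 lower in DR-AL (14.3% called, 5.83% higher and 8.5% lower). In the hypothalamus 1 was higher and 1 lower in DR (7.05% of all loci called, 4.33% higher and 2.72% lower), and 2 higher and 5 lower in DR-AL, where 15.1% of all loci were called (6.06% higher, 9.02% lower). In the hippocampus 1 was higher and 2 lower in DR (4.03% of all loci called, 1.36% higher and 2.67% lower). By the Z test 0 of the 43 were called in the DR-AL hippocampus, and 0 also by the edgeR exact test.

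**Figure D5:**
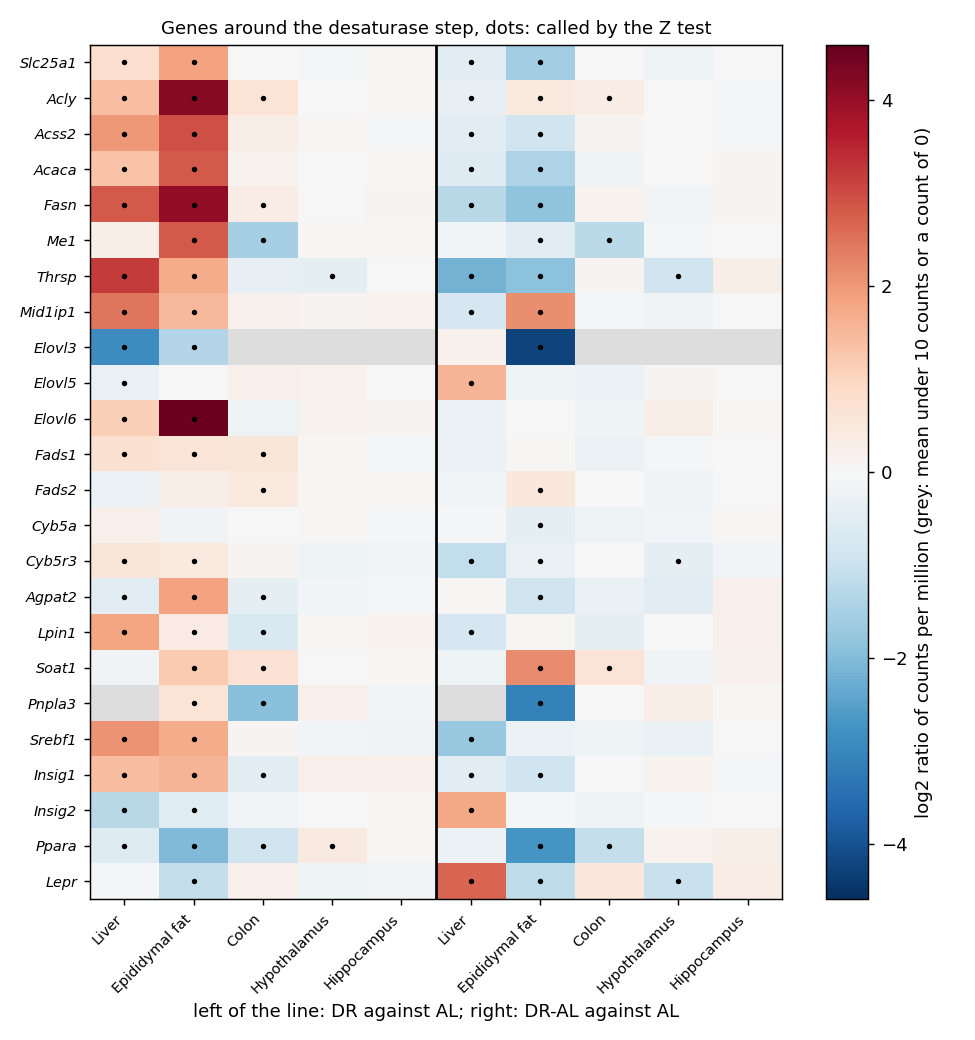
Log2 ratio of CPM for the named genes around the desaturase step (rows) in each tissue, DR against AL left of the line and DR-AL against AL right of it, red for higher and blue for lower, with a dot where the Z test called the gene. Fatty acid synthesis genes are red in DR liver and fat, up to 4.503 for Elovl6 in fat (Me1 is not called in liver), and mostly blue in DR-AL. Grey cells have a mean under 10 counts or a count of 0.

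A diet effect shared by the tissues was tested with edgeR's quasi-likelihood model, with tissue as a term. The 5 tissues of a diet came from 1 group of mice and are not independent animals, so this test describes the spread between tissues and not between mice. For DR-AL against AL, 1 of 17476 genes was called (0.00572%), and none of the 5 desaturase loci. Scd1 had a log2 difference of -0.32 (adjusted p = 0.86), Scd2 of 0.05 (0.99), Scd3 of 1.44 (0.85) and its minus-strand row of 1.72 (0.85). At an unadjusted p under 0.05, 862 genes and 2 of the desaturase loci (both rows of Scd3) passed. For DR against AL, 2 genes were called (0.0114%), Scd1, which the choice of the family fixes, and Cyp2b9. The gene called in DR-AL was 4933415F23Rik, and both names outside the family were chosen after their values were seen. Without the fat libraries the log2 difference of Scd2 in DR-AL was -0.26 and that of Scd3 0.57, and no desaturase locus was called. Of the 43 listed genes 0 were called in either contrast, and DESeq2 called 0 as well. At an unadjusted p under 0.05, 4 of the 43 passed for DR and 2 for DR-AL, beside 657 and 862 of all 17476 genes.

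Loci whose levels followed those of a member were named by Pearson correlation of log2(CPM + 1) among 14089 loci. The libraries share tissues, so r mostly describes the tissue pattern. Over all 15 libraries the best matches to Scd1 reached only 0.64 (Gadd45g), 0.62 (Gtf2h4) and 0.60 (Tor1b). Over the 10 AL and DR-AL libraries, a choice made after seeing the data, they were Acss3 (0.996), Aox1 (0.991), Pde3b (0.990), Fitm2 (0.989) and Mccc2 (0.989). For Scd2 over 15 libraries they included Rbmx2 (0.991), Pgs1, Eif4enif1 and Fam117b (each 0.985). For Scd3 they were Ccdc136 (0.992), Kif17 (0.986), Gm973, Nme5 and Ccdc135, and for its minus-strand row Dnaaf1 (0.977), 2610318N02Rik (0.975), Tssk6, Ccdc89 and Tcp11. Tssk6 and Tcp11 are known as testis genes, and the germ cell markers in fat are given above.

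The deposited FPKM values put the fat libraries on another scale. Over loci with at least 100 counts in both libraries, the median log2 FPKM ratio was -0.57 for DR and -1.42 for DR-AL against AL, where that of CPM was 0.16 and 0.19. On FPKM with a pseudocount of 0.1, Scd2 in fat had a log2 ratio of 2.13 under DR and 0.58 after it, and Scd1 in DR-AL fat had -2.59. Scd3 in DR-AL fat had 1.40, against 3.69 from the counts. Scd2 remained above and Scd1 below the median of all loci in fat on both scales.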

How the data were processed

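The authors trimmed reads, aligned them with strand using Strand software (v9.5) and removed duplicates. The methods name mm10 and the submitters' processing notes mm9 and DESeq2. The authors deposited raw counts (whole numbers, with unequal totals) and FPKM values (scaled by length and library) for 15 libraries of RNA depleted of ribosomal RNA. Positions in the table are shifted from GRCm38, so gene positions and sequences were taken from GENCODE M21, and only distances from the table.

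The members and lists were chosen with earlier results of these data known. Genes named are the family, all loci within 200000 bases, and up to 20 of the 43 pathway genes with the largest called log2 ratio at a mean of at least 100 counts, plus Fasn, Srebf1, Elovl6, Fads1, Fads2, Cyb5a and Cyb5r3, and the 5 loci most like each member with a mean of at least 10 counts. A locus within this rule is not reported here. Comparisons of 2 libraries used the study's Z test (counts over the total, square root, Poisson variance, Benjamini-Hochberg over loci with at least 1 count), which compares libraries, since no group has a replicate. Shared effects used edgeR 4.0.16 (TMM, filterByExpr, R 4.3.3), with DESeq2 1.42.0 as an alternative. Coding sequences were aligned with mafft 7.526. Of the 43 genes, 1 has several rows and 1 shares its row with another gene. At these depths (21767088 to 40500130 counts) a count of 0 allows up to 3, and intervals cover counting error only.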

Additional observations from a re-analysis of the deposited data

Results flagged for a closer look

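For 3 of the desaturase loci the log2 ratio of 1 contrast had opposite signs in a pair of tissues, with 1 library per tissue and diet, and none of these differences was tested. In the brain several of the values lie near 0, so the sign there carries little. For DR-AL against AL, the log2 ratio of Scd1 was 0.10 in the hippocampus and -1.01 in epididymal fat, a difference of 1.11. For Scd2 in DR against AL it was 2.79 in fat and -0.02 in the hypothalamus, a difference of 2.81, and in DR-AL against AL 2.13 in fat and -0.70 in liver, a difference of 2.83. For Scd2 in DR-AL against DR it was 0.07 in the hippocampus and -1.63 in colon, a difference of 1.70. The minus-strand row of Scd3 in DR-AL against DR stood at 1.49 in the hypothalamus, on 25 and 9 counts, and at -1.13 in colon, on 9 and 27 counts, a difference of 2.62.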

How the results depend on the processing

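No pairing by animal was possible because each tissue and diet has 1 library and the labels give no animal or replicate number. The tissue term of the model over all 15 libraries was the only block. Of 240 log2 ratios of desaturase loci recomputed under other scalings, 187 stayed within their counting interval or, for bounds against a count of 0 close to the bound, 46 moved and 7 reversed a direction that the interval gave. The reversals were Scd2 in the hypothalamus (DR-AL against AL, 0.00483 with DESeq size factors, 0.057 with FPKM at either pseudocount) and, in fat (DR-AL against DR), Scd3 (-0.029 and -0.011 with FPKM pseudocounts of 0.1 and 1) and its minus-strand row (-0.085 and -0.039). The cause was not tested.

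With a fold of at least 2, the pathway genes called were 15 and 9 in liver (DR and DR-AL), 20 and 15 in fat, 3 and 2 in colon, 0 and 1 in the hypothalamus and 0 in the DR hippocampus. The share of all loci called at that fold was not counted, so these numbers give no comparison with other loci. With the edgeR exact test at a coefficient of variation of 0.1 they were 20 and 13 in liver (8.85% and 10.6% of all loci called), 26 and 25 in fat (28.6% and 43.7%), 8 and 3 in colon (4.26% and 1.86%), 0 and 2 in the hypothalamus (1.21% and 3.45%), and 0 and 0 in the hippocampus (0.0425% and 0.292%). At a mean of at least 10 counts, the loci at 0 in all libraries of a diet were 340 for AL, 4 for DR and 5 for DR-AL. Without the fat libraries, an alternative added after seeing the data, 7 loci were at 0 in AL, 1 in DR (Scd1) and 2 in DR-AL.

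Genes changed over the tissues (DR, then DR-AL) were 22 and 22 with DESeq2, 8 and 17 with no filter on low counts, and 0 and 0 with no tissue term. They were 7 and 16 without the colon libraries, 19 and 10 without epididymal fat, 4 and 15 without the hippocampus, 5 and 7 without the hypothalamus, and 1 and 8 without the liver. Pathway genes changed were 0 in each of these except 1 in DR without epididymal fat. The counts of 1 library per group set the limit: no spread between mice can be estimated.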
